A study of Mus musculus with 15 samples.

Results

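The colony-stimulating factors and their receptors were described in RAW 264.7 cells, a mouse macrophage line, given LPS and extracellular vesicles (EVs) from irradiated mice. The group was chosen by name and holds 5 of the 561 genes on the nanoString nCounter Mouse Immunology panel. They are Csf1, Csf2, Csf1r, Csf2rb and Csf3r, and 4 of the 5 had enough counts to be tested. EVs came from plasma of young adult female C57BL/6J mice that were sham treated or exposed to whole body ionizing radiation (WBIR) at 2 or 9 Gy. Plasma was taken 3 or 7 days after irradiation. All macrophages, sham EVs included, received LPS together with the EVs, for 24 hours and at 30000000 EVs per exposure by the sample labels. The methods of the study give fewer EVs and another lysis buffer. The 5 groups (sham EVs, 2 Gy day 3, 2 Gy day 7, 9 Gy day 3 and 9 Gy day 7 EVs) have 3 samples each, 15 in all. No group without EVs or without LPS was analyzed here, and the cells are 1 line. The methods state that samples were run in triplicate. They do not say whether the samples of a group were separate cultures or used EVs from separate mice, so p-values measure the spread between these samples, which may be technical.

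Colony-stimulating factors are secreted proteins that control the production, survival and activation of myeloid cells. Csf1 encodes M-CSF, the main survival and growth factor of macrophages, and Csf1r encodes its receptor, a tyrosine kinase on the cell surface. Csf2 encodes GM-CSF, an inflammatory cytokine that macrophages and other cells make after stimulation. Csf2rb encodes the common beta chain that passes on the GM-CSF, IL-3 and IL-5 signals, largely through the kinase Jak2 and the transcription factors Stat5a and Stat5b. Csf3r encodes the receptor for G-CSF, which is best known from neutrophils and their precursors.

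Both ligand genes were lower in every 9 Gy sample than in any sham sample, and their promoters are shown for that reason. The windows run from 250 bases before to 50 bases after the transcription start in RefSeq (GRCm38.p6), and each reads 5′ to 3′ on the minus strand, on which both genes lie. Csf1 lies on chromosome 3 (107741048 to 107760469, build GRCm38.p6) and Csf2 on chromosome 11 (54247270 to 54249899). In the Csf2 window, chr11:54249850-54250149, the first run of capitals marks the IRF motif (GAAANNGAA, from 199 bases before the start) and the second the C/EBP motif (TTNNGNAA, from 145 bases before it, on the other strand). The Csf1 window, chr3:107760420-107760719, held no match.
Csf1: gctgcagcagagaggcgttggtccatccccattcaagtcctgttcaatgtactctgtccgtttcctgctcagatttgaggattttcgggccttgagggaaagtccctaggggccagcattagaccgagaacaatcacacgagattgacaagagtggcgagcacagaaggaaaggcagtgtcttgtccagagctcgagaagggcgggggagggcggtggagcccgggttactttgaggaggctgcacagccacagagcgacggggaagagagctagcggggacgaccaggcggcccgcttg
Csf2: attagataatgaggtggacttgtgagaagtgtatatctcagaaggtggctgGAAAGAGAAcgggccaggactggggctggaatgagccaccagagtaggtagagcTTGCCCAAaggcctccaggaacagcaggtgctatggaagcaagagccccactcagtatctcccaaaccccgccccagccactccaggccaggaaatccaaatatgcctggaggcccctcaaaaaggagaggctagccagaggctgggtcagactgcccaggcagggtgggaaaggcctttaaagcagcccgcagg
Both strands were searched. Of all 32851 promoter windows of this length, 8.56% held the IRF motif and 40.7% the C/EBP motif. The NF-kB motif searched was GGGNNTTCC, which 5.82% of windows held. For PU.1, GAGGAA was searched, and 28.3% of windows held it. For AP-1 the motif was TGANTCA, present in 7.81%. The TATA box was searched as its core letters TATAAA, found in 13.6% of windows. A match of letters is a description and shows no binding, and a missing match says only that these letters are not in the window. A window was at hand for 3 of the 5 genes, the third being Csf3r, whose window held a PU.1 match from 86 bases before the start and an IRF match after it.

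The libraries of 1 group were shallow. Total counts ran from 43176 to 87899 in the 9 Gy day 3 group and from 453178 to 837995 in the other samples. Of the 561 genes, 190 to 246 stood at the lowest deposited count of 1 in each 9 Gy day 3 sample and 5 to 11 in each other sample. There, 90 of the 269 genes that entered the test stayed below 20 counts in each of the 3 samples. Of its samples, replicates 1 and 2 carry a day label of 7 and were placed at day 3 by their titles. Normalized counts below are raw counts scaled so that the geometric mean of 14 housekeeping genes is the same in every sample, and differences were tested by edgeR (quasi-likelihood, p-values adjusted by Benjamini-Hochberg) over the 269 genes whose mean reached 20 counts. Under this scaling the median log2 fold change of all tested genes was -0.46 for 9 Gy day 3 and -0.45 for 9 Gy day 7 EVs against sham EVs. Among 13 tested housekeeping genes, 3 were themselves higher and 6 lower at day 3, and 4 higher and 4 lower at day 7. The median of all tested genes was -0.027 and 0.11 after TMM scaling and 0.56 and 0.65 after scaling to total counts.

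Csf1, the gene for M-CSF, fell with 9 Gy EVs of both days. The normalized counts of Csf1 were 68.8, 152 and 78.6 in the 3 sham samples. The 9 Gy day 3 samples stood at 14.6, 24.6 and 24.3, and the 9 Gy day 7 samples at 22.3, 28.3 and 31.2. Every 9 Gy sample was below every sham sample, and replicate 2 of sham EVs was the highest of all 15. Against a sham mean of 99.8 ± 45.5 (SD, n = 3), the means were 21.2 ± 5.72 at day 3 and 27.3 ± 4.52 at day 7. The edgeR log2 fold change of Csf1 was -2.18 (SE 0.39, adjusted p = 0.000359) for day 3 and -1.87 (SE 0.26, adjusted p = 4.8e-05) for day 7. The day 3 value rests on raw counts of 2, 5 and 6, 13 in all (95% Poisson interval 6.92 to 22.2, counting error only). Setting raw counts under 20 to 20 moved it to 0.066, whereas the day 7 raw counts of 37, 45 and 54 were not touched by that floor. When each sample was left out in turn, the log2 fold change ran from -2.38 to -1.74 at day 3 and from -2.07 to -1.43 at day 7, smallest at both days without sham replicate 2, and passed the test each time. After TMM scaling it was -1.74 and -1.32 (adjusted p = 0.00368 and 0.00121). Under total counts the fall of Csf1 was smaller still, at -1.16 for day 3 and -0.76 for day 7, and both still passed the test (adjusted p = 0.0137 and 0.0103). In RNA from whole cultures, fewer cells that express a gene and less of its RNA per cell cannot be told apart.

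Csf2, the gene for GM-CSF, had the largest fall of the 4 tested genes with 9 Gy day 7 EVs. The normalized counts of Csf2 were 52.1, 30.2 and 94.3 with sham EVs. They were 3.62, 2.52 and 5.78 with 9 Gy day 7 EVs, so the groups did not overlap. The mean went from 58.9 ± 32.6 to 3.97 ± 1.66 (SD, n = 3 each), and the edgeR log2 fold change was -3.84 (SE 0.67, adjusted p = 0.000262). The day 7 raw counts of 6, 4 and 10 were as low as those of Il3 in the same samples (4 to 10), and control probes, which could set a background, were not analyzed here. With raw counts under 20 set to 20 the log2 fold change was -2.28 (adjusted p = 0.00308), so the size of the fall depends on how such low counts are treated. The size depends on the scaling too. Over all tested genes the median at day 7 moved from -0.45 to 0.11 after TMM scaling and 0.65 after total counts. The Csf2 call held in 28 of 28 alternatives.

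With 9 Gy day 3 EVs the normalized counts of Csf2 were 7.28, 4.92 and 20.3, all below the lowest sham sample. These come from raw counts of 1, 1 and 5, of which the first pair sits at the lowest value in the table. The sum of 7 has a 95% Poisson interval from 2.81 to 14.4. The mean was 10.8 ± 8.27 (SD, n = 3) and the log2 difference from sham EVs was -2.31 (SE 0.93), which did not pass the test (edgeR adjusted p = 0.0504). The difference did not pass under any of the 4 other scalings either. It passed with DESeq2 (-2.36, adjusted p = 0.0118), with only the compared groups in the fit (-2.30, adjusted p = 0.0278), with the replicate number as a block (-2.29, adjusted p = 0.0218 with all groups, and -2.38, adjusted p = 0.00121 with only the compared groups) and when any 1 of 5 samples was left out. Those were sham replicate 2 (-2.63, adjusted p = 0.0291), and replicates 1 and 3 of 2 Gy day 3 EVs and 1 and 2 of 2 Gy day 7 EVs, which left the value at -2.31 (adjusted p from 0.0281 to 0.0453). Leaving out any 1 of the other 10 samples gave no pass, and over all 15 such fits the value ran from -3.30 without 9 Gy day 3 replicate 3 to -1.78 without sham replicate 3 (adjusted p up to 0.165). Without the replicates that carry the other day label it was -1.54 (adjusted p = 0.402), and with counts under 20 set to 20 it was 0.82 (adjusted p = 0.220).

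Csf1r, the M-CSF receptor (chromosome 18, 61105572 to 61131139), moved the other way from its ligand. Its normalized counts were 22.2, 31.2 and 43.5 with sham EVs. The 9 Gy day 3 samples stood at 204, 148 and 138, and the 9 Gy day 7 samples at 124, 132 and 102. No 9 Gy sample was below 102 and no other sample of the 15 was above 56.2. The mean went from 32.3 ± 10.7 to 163 ± 35.6 at day 3 and 119.6 ± 15.4 at day 7 (SD, n = 3 each). The edgeR log2 fold change was 2.29 (SE 0.26, adjusted p = 8.9e-06) for day 3 and 1.87 (SE 0.23, adjusted p = 1.4e-05) for day 7. In raw counts, the day 3 samples held 28, 30 and 34 for Csf1r, beside 20, 33 and 47 in the deeper sham samples. The day 7 samples held 206, 210 and 177. Every scaling gave a rise at both days, from 2.29 to 3.32 at day 3 and from 1.87 to 3.00 at day 7, all past the test.

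**Figure D1:**
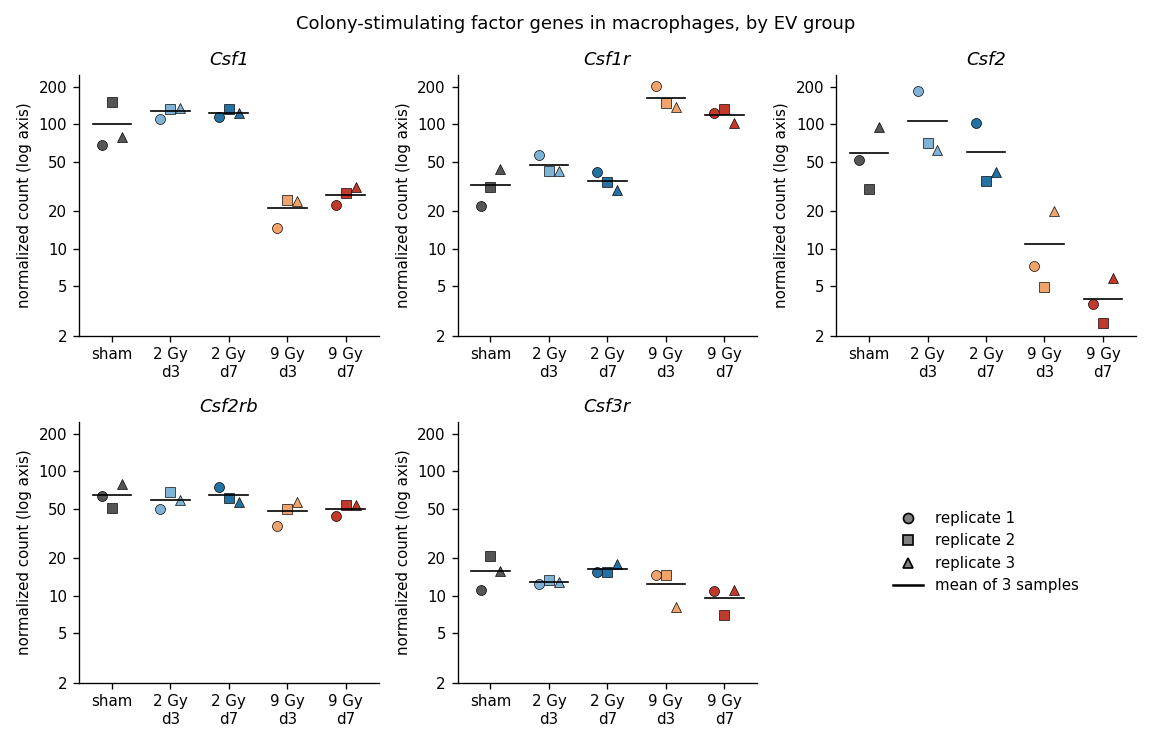
Normalized counts (log axis, scaled to 14 housekeeping genes) of the 5 genes in each of the 15 samples, by EV group, with d3 and d7 for days 3 and 7. Points are samples and lines are means of 3. Csf1 and Csf2 of all 6 samples with 9 Gy EVs lie below the sham samples, Csf1r lies above them at 102 to 204, and Csf2rb and Csf3r overlap or nearly overlap across groups.

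Csf2rb, the shared signaling chain of the GM-CSF receptor (chromosome 15, 78325800 to 78351001), did not pass the test in any comparison with sham EVs. Its normalized counts were 63.2, 51.0 and 78.6 with sham EVs. In the 9 Gy day 3 samples they were 36.4, 49.2 and 56.8, and in the 9 Gy day 7 samples 43.5, 53.5 and 53.2, which overlap the sham range. The edgeR log2 difference was -0.40 (SE 0.26, adjusted p = 0.231) at day 3 and -0.36 (SE 0.19, adjusted p = 0.115) at day 7. The sign depended on the scaling. It was 0.060 and 0.21 after TMM scaling and 0.61 and 0.73 after scaling to total counts, where the day 7 value passed the test as a rise (adjusted p = 0.00604). Without sham replicate 2 the day 7 difference was -0.51 and passed as a fall (adjusted p = 0.0373).

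Csf3r, the G-CSF receptor (chromosome 4, 126023441 to 126044975), had a mean under 20 counts and was left out of the main test. Its normalized counts were 11.1, 20.8 and 15.7 in the sham samples. In the 9 Gy samples they were 14.6, 14.8 and 8.11 for day 3, and 10.9, 6.92 and 11 for day 7. The day 7 samples lay just under the lowest sham sample. When all 561 genes were tested, Csf3r had an edgeR log2 fold change of -0.73 (SE 0.25, adjusted p = 0.0307) at day 7 and of -0.43 (SE 0.44, adjusted p = 0.673) at day 3. The raw sums behind the day 7 value were 48 counts, against 49 in the sham samples, so it rests on the scaling.

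Counted over the family, 1 of the 4 tested genes rose (Csf1r) and 1 fell (Csf1) with 9 Gy day 3 EVs, where 11.2% of all tested genes rose and 41.3% fell. With 9 Gy day 7 EVs 1 rose (Csf1r) and 2 fell (Csf1 and Csf2), where 11.9% of all tested genes rose and 49.1% fell. Without replicates 1 and 2 of 9 Gy day 3 EVs, Csf1 (-2.04, adjusted p = 0.0232) and Csf1r (2.08, adjusted p = 0.0013) still passed at day 3 in edgeR, on 1 sample whose spread is taken from the other groups. Falls were common on the panel under this scaling, and rises less so. After TMM scaling the split over all genes at day 7 was 80 higher and 68 lower, and after total counts 143 higher and 31 lower. Under TMM the same counts of 1 higher and 2 lower held for the family at day 7, and under total counts 2 were higher and 2 lower, the added rise being Csf2rb.

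**Figure D2:**
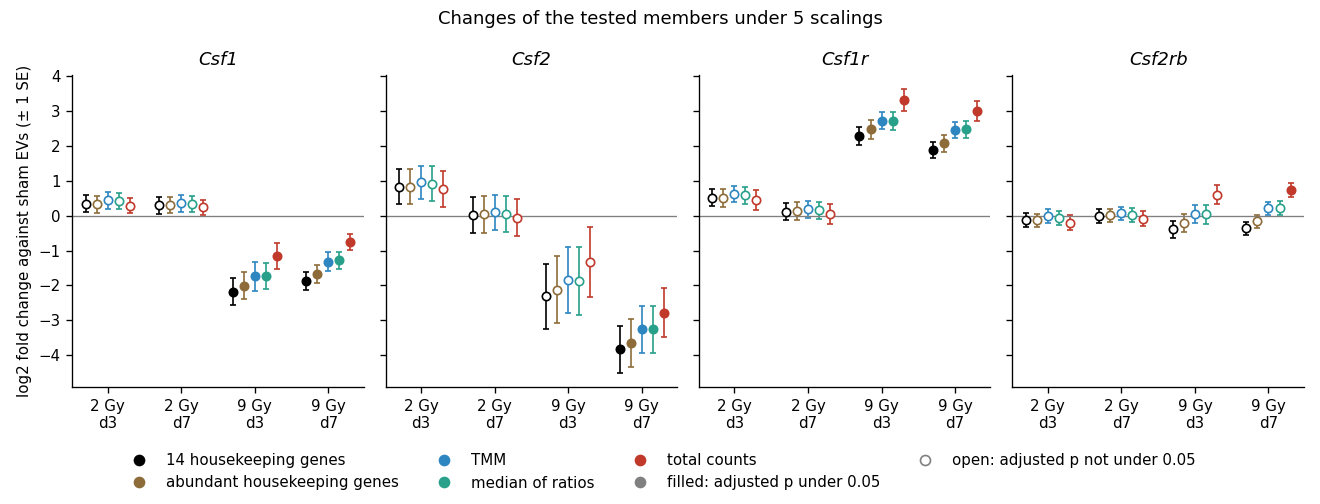
Log2 fold changes against sham EVs (± 1 SE) of the 4 tested genes for each EV group, under 5 scalings of the counts. Filled points have an adjusted p under 0.05. Csf1r is higher and Csf1 lower with 9 Gy EVs under all 5, whereas Csf2rb changes sign between the housekeeping scalings and the others.

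Most tested macrophage markers were lower with 9 Gy EVs under the housekeeping scaling. Of 10 macrophage markers on the panel, 7 had a mean of at least 20 counts, among them Cd14, Itgam, Fcgr1, Emr1 and Msr1. The summed normalized count of the 10 was 6499 to 10213 in the sham samples, and 2977 to 4822 (day 3) and 3036 to 4505 (day 7) in the 9 Gy samples. Of the 7, 6 fell at day 3 and 5 at day 7, with a median log2 fold change of -1.20 and -1.25, where 41.3% and 49.1% of all tested genes fell with medians of -0.46 and -0.45. After TMM scaling the marker medians were -0.74 and -0.69, beside -0.027 and 0.11 for all tested genes. There 3 markers were lower at each day, and 1 was higher at day 7. After total counts the marker medians were -0.22 and -0.16, beside 0.56 and 0.65 for all tested genes. In that scaling 1 was lower and 1 higher at day 3, and none lower and 2 higher at day 7. Csf1r rose while this list fell, and the part of the list in the fall of Csf1 and Csf2 was not tested. Of the genes listed as markers of other cells, few reached a mean of 20 counts. They were 1 of 7 listed for neutrophils (Fcgr4) and 2 of 10 for T cells (Cd8a and Lck). For B cells it was 2 of 9 (Ms4a1 and Btk) and for NK cells 1 of 8 (Eomes). Of these 6 genes some fell too under the housekeeping scaling, namely Cd8a (-0.89 and -0.82) and Lck (-1.05 and -0.71) at days 3 and 7, and Ms4a1 (-0.71) and Eomes (-0.94) at day 7. None of the 6 was lower past the test after TMM scaling or total counts. Fcgr4 went the other way, at 0.25 and 0.64 without passing, and it passed as higher at day 7 under the 4 other scalings (0.82 to 1.71) and at day 3 after total counts (1.26). After total counts 1 of the 2 B cell genes was also higher at each day. The defining T cell genes Cd3d and Cd3e had means under 8 counts.

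Ratios of raw counts within a sample do not depend on the scaling, and were looked at after the values were seen. Probes differ in efficiency, so only the change of a ratio between groups can be read. The ratio of Csf1r to Csf1 was 0.323, 0.205 and 0.553 in the sham samples and 0.237 to 0.505 with 2 Gy EVs. In the 9 Gy samples it was 14, 6 and 5.67 for day 3 and 5.57, 4.67 and 3.28 for day 7. Receptor over ligand was thus higher in every 9 Gy sample than in any other. For Csf2 and its receptor chain, the ratio of Csf2rb to Csf2 was 0.833 to 1.69 in the sham samples, and 2.8 to 10 (day 3) and 9.2 to 21.2 (day 7) in the 9 Gy samples. Between the receptors, Csf1r over Csf2rb was 0.351 to 0.611 with sham EVs and 1.92 to 2.86 with 9 Gy day 7 EVs. The day 3 ratios have small counts of Csf1 and Csf2 below the line, from 1 to 6. The day 7 ratio to Csf2 has the same limit, with raw Csf2 counts of 6, 4 and 10.

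**Figure D3:**
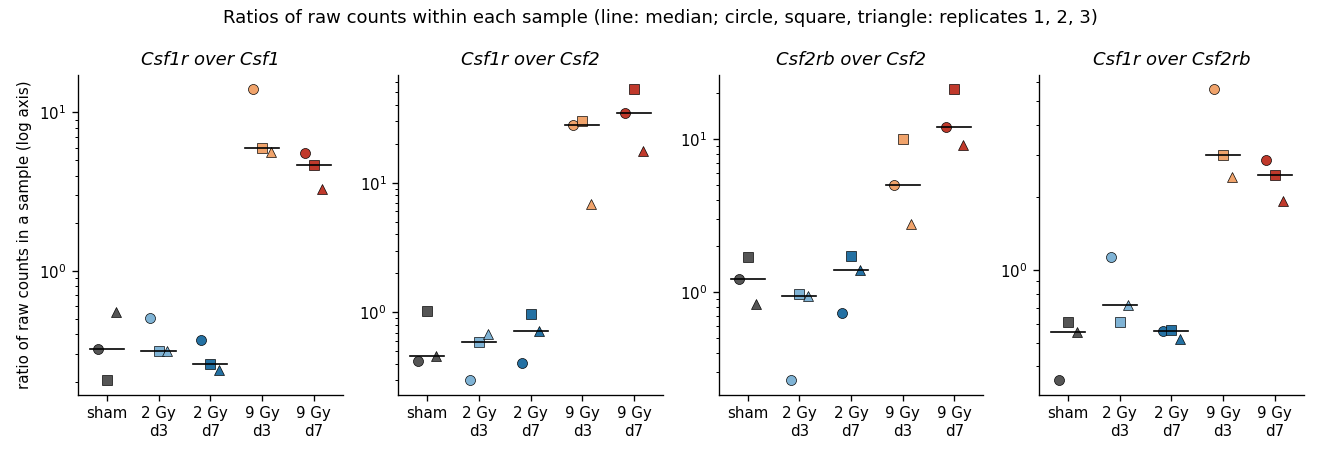
Ratios of raw counts of gene pairs in each of the 15 samples (log axis), by EV group, with the median of each group as a line. Csf1r over Csf1 is 3.28 to 14 in the samples with 9 Gy EVs and 0.205 to 0.553 in the others.

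With EVs of the lower dose none of the 4 tested genes passed the test. With 2 Gy day 3 EVs, Csf2 was 187, 71.1 and 62.4 and Csf1r 56.2, 41.8 and 42.2 in normalized counts, and both ranges overlap those of sham EVs. The log2 differences were 0.84 (SE 0.50) for Csf2, 0.51 (SE 0.25) for Csf1r, 0.34 (SE 0.25) for Csf1 and -0.12 (SE 0.19) for Csf2rb (edgeR adjusted p = 0.998 for each). Replicate 1 was the highest sample for Csf2 and Csf1r. Leaving out each sample in turn gave Csf2 differences from 0.18 to 1.37. With 2 Gy day 7 EVs, Csf1 was 114, 132 and 124, and the log2 differences of the 4 genes ran from -0.0047 to 0.30 (edgeR adjusted p from 0.944 to 0.991). In both comparisons edgeR called 0% of all tested genes. At an unadjusted p under 0.05 it called 7 genes for day 3 and 1 for day 7, none of them in the family, and DESeq2 called 0 in each.

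The 9 Gy EVs of both days were then compared with the 2 Gy EVs of both days, which share no sample. Csf1 was lower in all 6 samples with 9 Gy EVs than in any with 2 Gy EVs, at a log2 fold change of -2.35 (SE 0.23, edgeR adjusted p = 6.8e-07). Csf1r was higher in all 6, at 1.77 (SE 0.17, adjusted p = 6.8e-07), and Csf2 lower in all 6, at -3.50 (SE 0.54, adjusted p = 6.3e-05). Csf2rb differed by -0.32 (SE 0.16) and did not pass (adjusted p = 0.0919). It passed as a rise of 0.81 after total counts (adjusted p = 0.000673). Over all tested genes 15.6% were higher and 52% lower with the higher dose under the housekeeping scaling. After TMM scaling 85 genes were higher and 84 lower, and after total counts 168 higher and 36 lower. The median log2 fold change of all tested genes was -0.45, and -0.024 and 0.69 under those other scalings. The sizes for Csf1, Csf1r and Csf2 thus depend on the scaling, though each call held in 30 of 30 alternatives. Within day 3 alone the values were -2.52 for Csf1, 1.78 for Csf1r and -3.14 for Csf2, and within day 7 alone -2.17, 1.76 and -3.86. All 6 passed the test (adjusted p from 1.2e-05 to 0.00994).

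Between days none of the 4 genes passed in the fit without pairing, and 0% of all tested genes were called in each day comparison. The log2 differences of Csf1r were -0.42 (SE 0.24, edgeR adjusted p = 0.986) for 9 Gy and -0.40 (SE 0.24, adjusted p = 0.998) for 2 Gy EVs. With 9 Gy EVs, Csf2 differed by -1.53 (SE 1.3, adjusted p = 0.986), and by -1.91 to -0.54 when each sample was left out in turn. Unadjusted p-values were under 0.05 for 6 genes with 9 Gy EVs and 4 with 2 Gy EVs, none in the family, and DESeq2 called 0. With 2 Gy EVs, Csf2 was 187, 71.1 and 62.4 at day 3 and 103, 35.1 and 41.1 at day 7. Each day 7 sample was below the day 3 sample of the same number, but the groups overlap, and the log2 difference was -0.82 (SE 0.50, adjusted p = 0.998). With the replicate number as a block and only these groups in the fit, it was -0.84 (SE 0.12, adjusted p = 0.00205), 1 of 27 genes called, of which 24 were higher and 3 lower at day 7. With the block and all groups in the fit Csf2 did not pass (-0.84, SE 0.38, adjusted p = 0.977). The difference between the doses in the change between days was tested too and passed for none of the 4 genes (-0.71, SE 1.31 for Csf2, adjusted p = 0.993). That test called 0% of all tested genes, with 4 at an unadjusted p under 0.05, none in the family, and 0 by DESeq2. Its Csf2 value ran from -1.37 to 0.28 when each sample was left out in turn, so the sign was not stable.

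Related ligands and receptors on the panel were few. Of 16 further genes listed for the wider family, 5 were on the panel, and 4 of these stayed under 20 counts in all samples. They are Il3 and Il5, the cytokines that share the Csf2rb chain, Kit, the stem cell factor receptor, and Tnfsf11, the osteoclast factor RANKL. Only Tnfrsf11a, which encodes RANK, the RANKL receptor, was tested. Its mean was 37.3 ± 3.49 in the sham samples and 64.1 ± 15.1 in the 9 Gy day 7 samples (SD, n = 3 each). Its edgeR log2 fold change was 0.78 (SE 0.25, adjusted p = 0.0163). It did not pass without 9 Gy day 7 replicate 2 (0.61, adjusted p = 0.0724) or without sham replicate 1 (0.71, adjusted p = 0.0598). At day 3 it was 0.75 (SE 0.33, adjusted p = 0.0684). Under the 4 other scalings Tnfrsf11a passed as higher at both days, at 0.93 to 1.78 for day 3 and 0.98 to 1.91 for day 7. Csf3, Il34 and Spi1 were not on the panel.

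Among genes that carry the receptors' signals, more were lower than higher under the housekeeping scaling, as over the whole panel. Of 35 signaling genes listed, 19 were on the panel and 17 were tested. With 9 Gy day 7 EVs 9 of the 17 were lower and 1 higher, where 49.1% of all tested genes were lower and 11.9% higher, with a median log2 fold change of -0.60 beside -0.45 for all tested genes. The falls with the largest change among genes without overlap were in Fyn (-1.54, SE 0.26, edgeR adjusted p = 0.000181), Syk (-1.34, SE 0.23, adjusted p = 0.000222) and Src (-1.26, SE 0.25, adjusted p = 0.00059), which encode cytoplasmic tyrosine kinases. After total counts these 3 were at -0.46, -0.26 and -0.20 and did not pass (adjusted p from 0.173 to 0.368). Jak2, the kinase bound to the Csf2rb chain, fell by 0.62 on the log2 scale (SE 0.21, adjusted p = 0.0220), from a mean of 328 ± 46.1 to 213 ± 58.4. That call was lost in 8 of 29 alternatives, among them TMM scaling (-0.035, adjusted p = 0.910), only the compared groups in the fit (adjusted p = 0.0553), and the fits without 9 Gy day 7 replicate 3 (-0.43, adjusted p = 0.0880) or sham replicate 3 (-0.51, adjusted p = 0.0909). Stat3 fell by 0.60 (SE 0.16, adjusted p = 0.00485), and was at -0.026 after TMM scaling (adjusted p = 0.911) and -0.58 with the replicate block in the compared groups (adjusted p = 0.0570). Stat5a and Stat5b, the main factors downstream of Csf2rb, differed by -0.44 (SE 0.32) and -0.25 (SE 0.21) and did not pass (adjusted p = 0.241 and 0.305). The one rise was in Tyk2, a Janus kinase of interferon and IL-12 family receptors, from 49.0 ± 4.27 to 83.5 ± 18.7 (0.76, SE 0.22, adjusted p = 0.00942).

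With 9 Gy day 3 EVs 5 of the 17 were lower and 1 higher (median -0.55), where 41.3% of all tested genes were lower and 11.2% higher. The falls included Fyn (-1.54), Src (-1.23) and Jak1 (-0.67), and the rise was again in Tyk2 (1.28, SE 0.26, edgeR adjusted p = 0.00109). Fyn had raw counts of 4 to 7 there and turned to 0.40 with counts under 20 set to 20 (adjusted p = 0.271). Without the samples that carry the other day label Fyn was at -1.48, Src at -1.07 and Tyk2 at 1.04, and none of the 3 passed (adjusted p = 0.0773, 0.0658 and 0.0551). Jak1, named here after its value was seen, did not pass after TMM scaling (-0.24, adjusted p = 0.171) and turned to 0.35 after total counts, where it did not pass either. Stat3 was at -0.43 (SE 0.17, adjusted p = 0.0447), a call that held in 8 of 29 alternatives and was lost when any 1 of 11 samples was left out (-0.31 to -0.43, adjusted p from 0.0511 to 0.163). Jak2 differed by -0.55 (SE 0.24, adjusted p = 0.0651) and Syk by -0.56 (SE 0.32, adjusted p = 0.150). The direction of this list turned with the scaling. After TMM scaling it held 3 higher and 3 lower at day 3 and 3 higher and 5 lower at day 7. After total counts it held 6 and 7 higher and none lower, with Stat5b and Stat3 higher at day 7 by 0.87 and 0.49 (adjusted p = 0.00239 and 0.0279). Jak2 was then at 0.51 and did not pass (adjusted p = 0.115). Tyk2 was higher and past the test under TMM and total counts too, at 1.34 and 1.88 for day 7.

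Of the transcription factors tied to these genes, Cebpb and Nfkb2 fell furthest. Of 28 listed, 16 were on the panel and 10 were tested. With 9 Gy day 7 EVs 5 of the 10 were lower and none higher, near the 49.1% of all tested genes that were lower, with a median log2 fold change of -0.54. Cebpb, a C/EBP factor of myeloid and inflammatory genes, had a mean of 2172 ± 711 with sham EVs and of 461 ± 198 here (-2.24, SE 0.35, edgeR adjusted p = 0.000118). Nfkb2, an NF-kB subunit, went from 3699 ± 422 to 884 ± 179 (-2.06, SE 0.18, adjusted p = 6.6e-07). Runx1, a factor of blood cell development, was at -0.77 (SE 0.30, adjusted p = 0.0395). The Runx1 call was lost in 11 of 28 alternatives, among them TMM scaling (-0.19, adjusted p = 0.607), only the compared groups (adjusted p = 0.0604), the block in those groups (adjusted p = 0.115) and 5 fits without 1 sample. Those left out replicate 1 or 3 of 9 Gy day 7 EVs, replicate 1 or 3 of sham EVs or replicate 2 of 2 Gy day 3 EVs (-0.51 to -0.82, adjusted p from 0.0505 to 0.154). Irf8, a factor of the macrophage lineage, was at -0.60 (SE 0.25, adjusted p = 0.0496). The Irf8 call was lost in 16 of 29 alternatives, among them TMM scaling (-0.030, adjusted p = 0.919), no filter (adjusted p = 0.0554) and the fits without any 1 of 10 samples (-0.49 to -0.60, adjusted p from 0.0532 to 0.167). The last of the 5 was Bcl6 (-0.82), a repressor, named after its value was seen, which did not pass after TMM scaling (-0.24, adjusted p = 0.373) and turned to 0.28 after total counts (adjusted p = 0.368).

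At day 3 5 of the 10 were lower and 1 was higher (median -0.79), where 41.3% of all tested genes were lower and 11.2% higher. Cebpb was at -2.22 (SE 0.37, edgeR adjusted p = 0.000199), Nfkb2 at -2.30 (SE 0.19, adjusted p = 4.1e-07) and Irf8 at -1.22 (SE 0.30, adjusted p = 0.00449). Irf8 did not pass without the samples that carry the other day label (-0.64, adjusted p = 0.164), after TMM scaling (-0.76, adjusted p = 0.0610) or after total counts (-0.23, adjusted p = 0.519). Nfatc3 (-1.38), Bcl6 (-1.19) and Rela (0.55) also passed, all 3 named after their values were seen. These calls were lost in 9, 5 and 11 of 28 alternatives. With counts under 20 set to 20, Nfatc3 turned to a rise of 1.23 (adjusted p = 0.00257) and Bcl6 to 0.13 (adjusted p = 0.685). After TMM scaling Nfatc3 and Bcl6 were at -0.92 and -0.75 and did not pass (adjusted p = 0.0843 and 0.0697), nor did Rela with only the compared groups (0.55, adjusted p = 0.0794). Without replicate 3 of 9 Gy day 3 EVs neither Nfatc3 (-1.12, adjusted p = 0.0758) nor Bcl6 (-0.91, adjusted p = 0.0563) passed, and without sham replicate 3 neither Nfatc3 (-0.95, adjusted p = 0.0688) nor Rela (0.52, adjusted p = 0.0895). Rela was lost also without sham replicate 1, replicate 1 or 2 of 9 Gy day 3 EVs or replicate 2 of 2 Gy day 3 EVs (0.50 to 0.55, adjusted p from 0.0508 to 0.115). Runx1 had raw counts of 2 to 5 there and differed by -0.38 (SE 0.46, adjusted p = 0.493). Cebpb and Nfkb2 were lower under all scalings, at -1.19 and -0.97 for day 7 after total counts. Runx1 and Irf8 turned to 0.35 and 0.48 there, and the list then held 4 higher and 2 lower at each day.

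**Figure D4:**
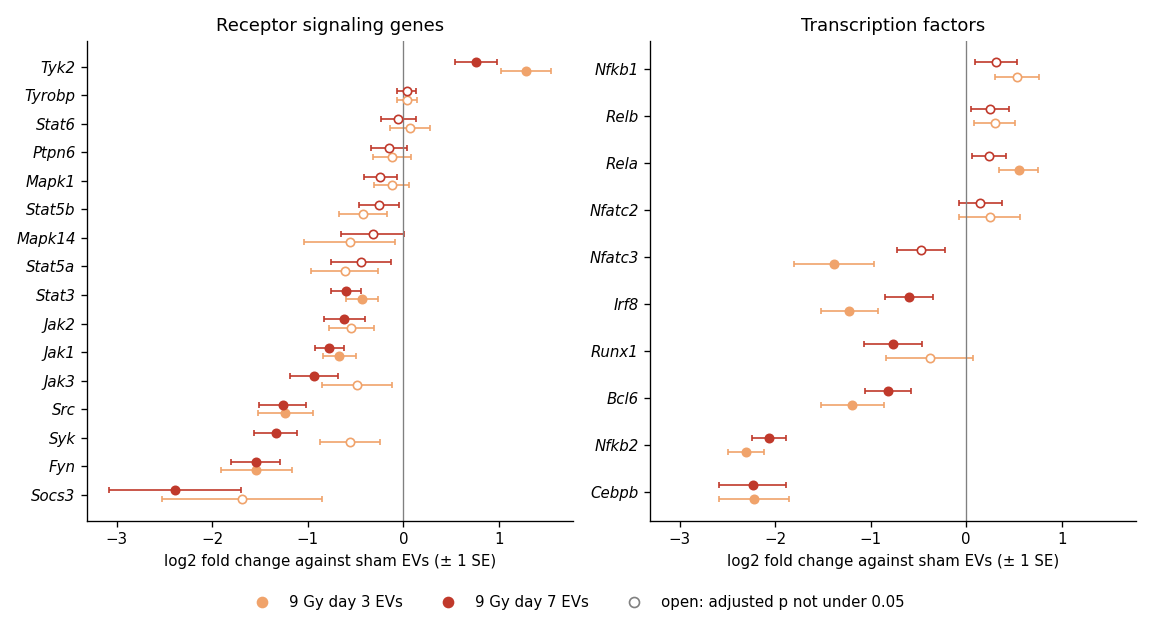
Log2 fold changes against sham EVs (± 1 SE, housekeeping scaling) of tested signaling genes and of the 10 tested transcription factors with 9 Gy day 3 and day 7 EVs. Filled points have an adjusted p under 0.05. Nfkb2 and Cebpb lie at -2.06 to -2.30 at both days, and Tyk2 is the signaling gene past the test on the right.

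When 9 Gy EVs were compared with 2 Gy EVs, 9 of the 17 signaling genes were lower and 1 higher with the higher dose, and 4 of the 10 transcription factors were lower and 1 higher, where 52% of all tested genes were lower and 15.6% higher. After TMM scaling the signaling genes held 4 higher and 4 lower and the transcription factors 4 higher and 2 lower. After total counts these were 11 higher and 0 lower, and 6 higher and 2 lower. Stat5a and Stat5b passed the test in that comparison, at -0.65 (SE 0.24, edgeR adjusted p = 0.0265) and -0.54 (SE 0.16, adjusted p = 0.00946). After TMM scaling neither passed (-0.23 and -0.11, adjusted p = 0.420 and 0.588), and after total counts Stat5a was at 0.52 (adjusted p = 0.0715) and Stat5b rose by 0.61 (adjusted p = 0.00380). The Stat5a call was also lost when any 1 of 7 samples was left out (-0.50 to -0.65, adjusted p from 0.0521 to 0.0783). With 2 Gy EVs of either day none of these genes passed against sham EVs.

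The genes with the profile most like each member over the 15 samples were found by the root mean square difference in log2 normalized count, each gene centred on its mean. For Csf1 they were Nfkb2 (0.272), the chemokine gene Ccl5 (0.286) and the cytokine subunit gene Ebi3 (0.353), where the median of all other genes was 0.988. For Csf1r they were the RNA sensor gene Ifih1 (0.434), the chemokine gene Cxcl10 (0.472) and Il1rl1, the IL-33 receptor (0.487), with a median of 1.26. For Csf2 they were the IL-1 receptor antagonist Il1rn (0.680), the TNF receptor Tnfrsf1b (0.723) and complement factor B, Cfb (0.740), with a median of 1.60. For Csf2rb they were Stat3 (0.176), Psmb5 (0.186) and Casp8 (0.202), with a median of 0.505. Likeness is small for genes that vary little, and the samples share a scaling and a shallow group, so the measure is a description. In log2 fold change with 9 Gy day 7 EVs, Ifih1 (2.16), Cxcl10 (2.08) and Il1rl1 (0.96) stood beside the 1.87 of Csf1r. Nfkb2 (-2.06), Ccl5 (-2.07) and Ebi3 (-2.01) stood beside the -1.87 of Csf1. These genes were picked by likeness over the same samples, so near values follow from the choice.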

How the data were processed

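The authors deposited raw counts of 561 genes from the nanoString nCounter Mouse Immunology panel for 15 samples. Control probes were not analyzed here, so no background was subtracted. The normalization by the authors in nSolver is not in these values, and its settings are not given in the sources used here. Samples were grouped by title. Each sample was scaled by the geometric mean of 14 housekeeping genes. The 269 genes whose mean reached 20 counts were tested in 1 edgeR quasi-likelihood fit of all 5 groups (edgeR 4.0.16, R 4.3.3), with Benjamini-Hochberg adjustment and a threshold of 0.05. The SE is the absolute log2 fold change divided by the square root of F. An exact permutation test of 3 against 3 samples cannot go below p = 0.1 and was not used. The procedure was also run on simulated counts with the same spread for all genes and as many rises as falls. These data differ in both, so that run does not show how well the procedure does here.

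The family, the gene lists and the tests were chosen with earlier results of these data known. Named genes are the 5 members, Jak2, Stat5a, Stat5b, Stat3, Spi1, Runx1, Cebpb, Irf8, Il3, Il5, Il34 and Csf3, up to 3 largest rises and 3 largest falls per list with 9 Gy day 7 EVs that passed without overlap, and the 3 genes most like each member (1 was added to normalized counts before log2). Others are marked.

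Samples of the same number deviated together between days, with correlations from 0.392 to 0.782 for 2 Gy EVs and from 0.350 to 0.730 for 9 Gy EVs, so numbers were used as a block there. Different numbers reached 0.615 and 0.439, and no source says what the numbers share.

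Alternatives were 4 other scalings, other filters, a floor of 20 counts, a prior count of 2, only the compared groups, the replicate block, both treatments of the conflicting day labels, DESeq2 1.42.0 and leaving out each sample. Day 3 and day 7 groups alone were added after the data were seen. All 5 symbols matched RefSeq (GRCm38.p6). Single values of some genes of the lists are not reported here.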

Additional observations from a re-analysis of the deposited data

How the results depend on the processing

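Most values of the 4 tested genes over 8 comparisons kept their direction and their side of the threshold, in 883 of the computed alternatives. A change of sign between values that both missed the threshold counts as the same (65 cases over all named genes). In 14 alternatives a value newly passed in the same direction and in 7 the sign turned with at least 1 of both values past the threshold. With a mean of at least 100 counts no member was left to test, so 0 passed with 9 Gy day 3 EVs, 9 Gy day 7 EVs and 9 against 2 Gy EVs, and 109 genes passed at day 7. Placing the samples with conflicting labels at day 7 gave 74 genes at 9 Gy day 3, and leaving them out gave 78, against 141. Without a filter 1 gene passed with 2 Gy day 7 EVs. Setting counts under 20 to 20 lifts nearly all low counts of the shallow 9 Gy day 3 group by construction. It then gave, for 9 Gy day 3, Csf1 0.066, Csf2rb 0.70, Fyn 0.40, Syk 1.20, Runx1 1.95, Nfatc3 1.23 and Bcl6 0.13, and between the 9 Gy days Csf1 -1.94 and Csf2rb -1.06, with 3 members and 87 genes past the threshold. For the difference between doses in the day change it gave Csf1 -1.89, 3 members and 73 genes. TMM scaling turned Stat3 at 9 Gy day 3 to 0.017. Total counts turned Stat3 there to 0.58 and Jak1 to 0.35, and at 9 Gy day 7 Bcl6 to 0.28, Csf2rb to 0.73, Runx1 0.35, Jak2 0.51, Stat5b 0.87, Stat3 0.49 and Irf8 0.48, and Csf2rb in 9 against 2 Gy EVs to 0.81. The replicate block with only the compared groups called 1 member and 27 genes between the 2 Gy days. With either block Csf2 passed at 9 Gy day 3 (-2.29 and -2.38, adjusted p = 0.0218 and 0.00121), a comparison in which the numbers were not used as pairs, and no other call of a member changed. Leaving out each sample gave 2 to 3 members and 113 to 145 genes for 9 Gy day 3, 3 to 4 and 146 to 172 for 9 Gy day 7, 3 and 165 to 184 for 9 against 2 Gy, and 0 elsewhere. Counts of Csf1 and Csf2 with 9 Gy day 3 EVs are too low to rank the days.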
